A study of Mus musculus with 4 samples.

Results

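The genes described here encode the enzymes and transporters that carry glucose to lactate and through the pentose phosphate pathway. They were taken from a list of symbols in the order of the pathway steps, with no threshold on a measured value. All 33 listed members were found among the 50600 genes of the deposited tables. Of these, 31 are pathway genes, and the other two, Gm26762 and Fam57b, lie on the strand opposite Gpi1 and Aldoa.

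RNA was measured in 4 libraries of T helper 2 (Th2) cells, a CD4 T cell type known for interleukin-4 and interleukin-13. The cells were primary cells of C57BL/6NJ mice, and the file headers name 48 hours. All 4 libraries belong to 1 group, biological replicates 1 to 4, with no allele, drug or control group. The labels give a separate biosample for each library but 1 donor identifier for all, an unknown age and a sex that was not collected, so a p-value here measures only the spread between these libraries.

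Glycolysis splits glucose into pyruvate in the cytosol and yields ATP and NADH. Activated T cells are known for running it fast even with oxygen present, and for turning much of the pyruvate into lactate, which monocarboxylate transporters export. The pentose phosphate pathway branches off after the hexokinase step. Its oxidative arm makes NADPH, and its non-oxidative arm exchanges sugars with glycolysis and makes ribose phosphate for nucleotides.

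Most counts in these tables stood in rows whose exons share bases with a gene on the other strand. Rows without such an overlap held 7.53%, 6.88%, 5.48% and 6.67% of counts in replicates 1 to 4. Totals were 1785970 to 2271993 counts per library, and a count of 0 allows up to 3 counts, or 1.32 to 1.68 CPM, counts scaled to the same total in each library. Every level below is therefore the count, or the TPM, counts divided by exon length and then scaled to the same total, assigned to the named gene. The tables were counted with strand setting 1, and whether that setting matches the strand of these libraries is not given in the sources used here and was not tested. If it did not match, counts in a row opposite a pathway gene could belong to that gene. Counts in the row of a pathway gene with an overlap, such as Pfkp, could likewise belong to the gene opposite it. Levels of such genes, ratios between isozymes that include them and ratios between both rows therefore compare assigned counts and not transcripts. Of the T cell markers 5 of 6 and of the Th2 markers 4 of 4 reached 1 TPM in every library, and Cd4 averaged 11.5 TPM ± 2.54 and Il4 18.5 ± 2.46 (SD, n = 4), both without an overlap. With an overlap, Cd247 stood at 168 ± 8.39, Ptgdr2 at 59.3 ± 8.89, Gata3 at 5.39 ± 1.68 and Cd3e at 2.33 ± 1.08. Macrophage and erythroid markers each reached 1 TPM in 1 of 3 cases, namely Csf1r at 196 ± 5.16, above each T cell and Th2 marker, and Alas2 at 9.73 ± 0.774, both with an overlap, and the B cell gene Cd79a stood at 4.09 ± 1.84. Muscle and brain markers reached it in 0 of 3 each, and Ms4a1, Adgre1, Hbb-bs, Hba-a1, Acta1, Myh4, Snap25 and Syt1 had 0 counts in all libraries.

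The exon bases shared by both strands are shown for the aldolase gene Aldoa and the phosphoglucose isomerase gene Gpi1, since their opposite rows hold more counts than all the pathway genes together. The Aldoa line is the coding part of 1 exon, chr7:126797644-126797755, minus strand of GRCm38, with letters from GENCODE vM21 transcripts. Its capitals mark the 25 bases that Fam57b also covers, chr7:126797668-126797692. The Gpi1 line is one of 4 shared stretches, chr7:34227118-34227237 on the minus strand, all 120 bases of which also lie in an exon of Gm26762 and so are in capitals.
Aldoa: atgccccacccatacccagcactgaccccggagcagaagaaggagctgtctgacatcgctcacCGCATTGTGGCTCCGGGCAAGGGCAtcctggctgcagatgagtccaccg
Gpi1: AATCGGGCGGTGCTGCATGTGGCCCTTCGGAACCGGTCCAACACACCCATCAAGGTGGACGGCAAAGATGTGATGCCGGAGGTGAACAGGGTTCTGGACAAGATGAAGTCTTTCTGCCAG

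Of the 31 pathway genes, 22 reached 1 TPM in every library. The same held for 13.3% of all genes and 21.8% of protein-coding genes. Above 3 counts in every library were 24 of 31, and Aldoc, Eno2 and Ldhb, the isozymes of aldolase, enolase and lactate dehydrogenase that are best known from brain or heart, passed 3 counts in no library. An overlap on the other strand was present in 11 of 31 pathway genes (35.5%), against 22.1% of protein-coding genes. The median pathway gene stood at 4.37 TPM, against 0.115 TPM over all protein-coding genes. Over the protein-coding genes that reached 1 TPM in every library, a set selected for its level, the median was 5.68 TPM. In bulk RNA, fewer cells with a transcript and less of it per cell cannot be told apart.

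Together the 31 genes had 467, 420, 331 and 442 TPM in replicates 1 to 4, a mean of 415 ± 59.2 (SD, n = 4), or 0.136% ± 0.0152 of all counts. Upper glycolysis held 193 TPM ± 18.1, lower glycolysis 99.1 ± 20.9 and the lactate and pyruvate genes 85.0 ± 16.9. Glucose entry stood at 8.08 ± 2.78, the oxidative pentose phosphate arm at 10.2 ± 1.58 and the non-oxidative arm at 19.3 ± 4.86. Levels were concentrated in few genes: the 8 highest, Pfkp, Ldha, Tpi1, Gapdh, Pkm, Pfkm, Aldoa and Eno1, held 78.0% ± 0.764 of the summed TPM. Of those 8, 5 have an overlap on the other strand (Pfkp, Tpi1, Gapdh, Pfkm and Aldoa).

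**Figure D1:**
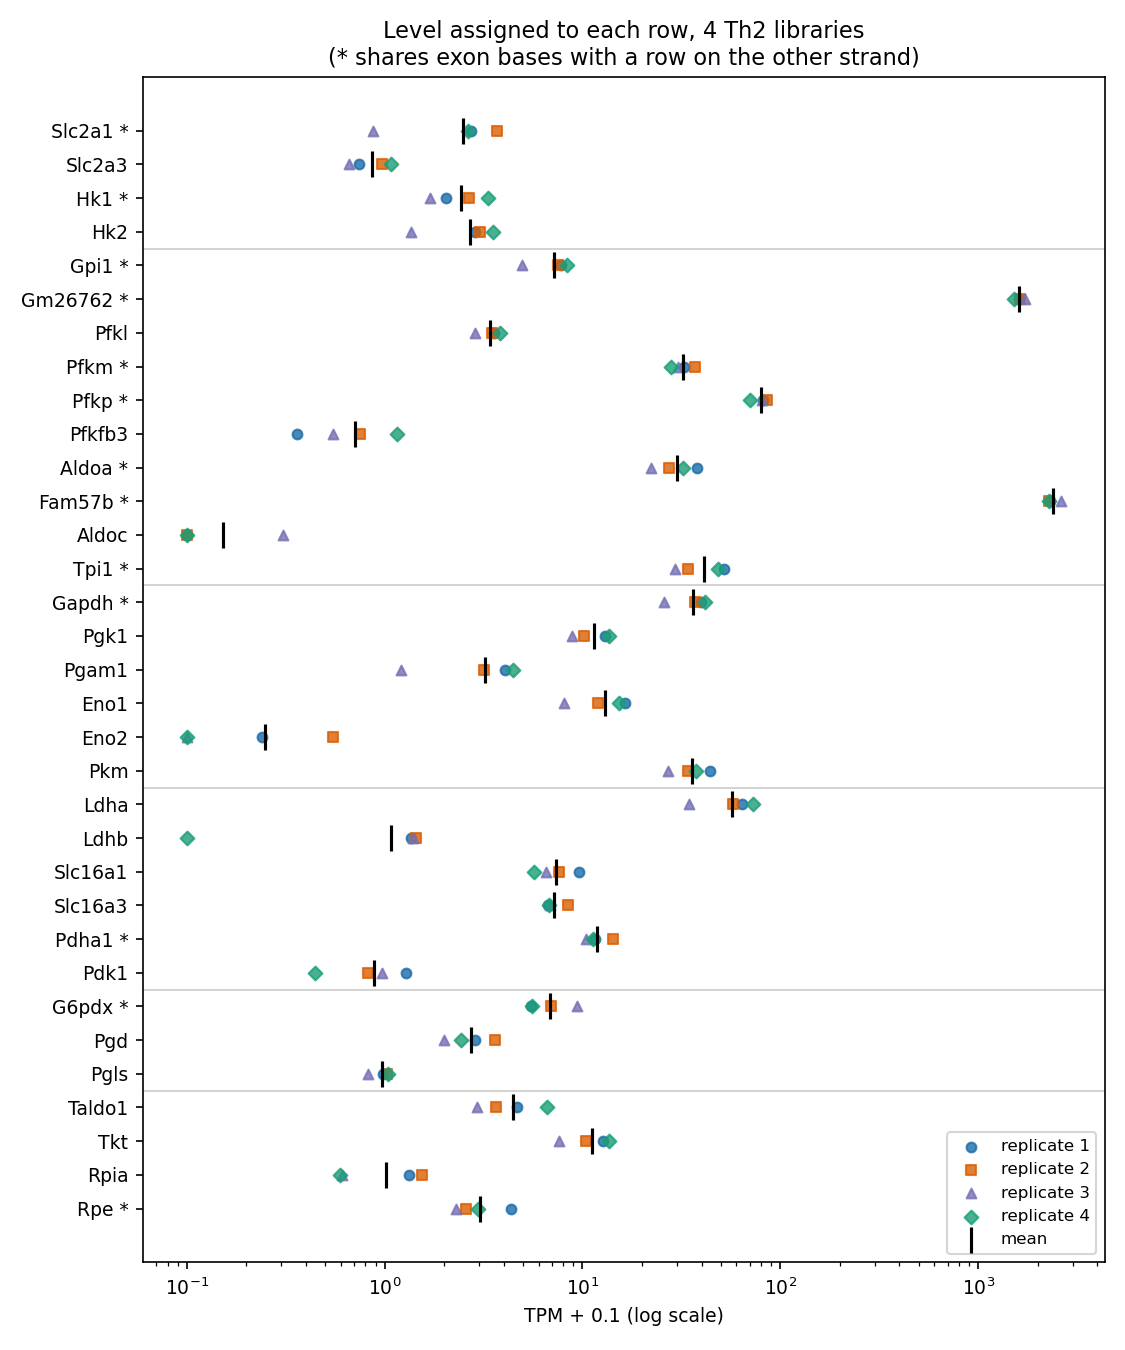
TPM plus 0.1 on a log axis for the 33 members in pathway order, with 1 point per library and a bar at the mean, and an asterisk for members with an exon overlap on the other strand. Gm26762 (1616 TPM) and Fam57b (2375 TPM) sit far to the right of every pathway gene, of which Pfkp (79.6 TPM) is the highest, and the points at 0.1 are libraries with 0 counts.

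Glucose entry was assigned few counts. Slc2a3, a transporter of high glucose affinity, had 7, 9, 6 and 8 counts in replicates 1 to 4, or 0.764 TPM ± 0.196 (SD, n = 4). Slc2a1, the main glucose transporter of activated T cells, had 14, 18, 4 and 10 counts, or 2.39 TPM ± 1.18. Replicate 3 was lowest for both. The log2 ratio of Slc2a3 over Slc2a1 (TPM + 1) was -0.87 ± 0.50 and below 0 in 4 of 4 libraries, with an exact two-sided sign-flip p of 0.13, the smallest that 4 libraries allow (0.17 adjusted over 11 ratios). Gm12868, an antisense gene that shares 105 exon bases with Slc2a1, had 1189, 1025, 1148 and 866 counts, against the 14, 18, 4 and 10 of Slc2a1, at a log2 ratio of 9.62 ± 0.90 per kb of exon (exact sign-flip p = 0.13).

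Hexokinase traps glucose in the cell as glucose 6-phosphate. Hk2, the form known to be induced in proliferating cells, had 25, 25, 11 and 23 counts, and Hk1, the form found in most tissues, had 25, 31, 20 and 31. Their levels were 2.60 TPM ± 0.938 for Hk2 and 2.33 ± 0.719 for Hk1 (SD, n = 4), and the ranges overlapped. Hk2 over Hk1 had a log2 ratio of 0.09 ± 0.23, positive in 3 of 4 libraries, with an exact sign-flip p of 0.5 (0.55 adjusted), and on raw counts it was -0.38. Hk1os, an antisense gene inside the span of Hk1 that shares 157 bases with it, had 9, 10, 12 and 5 counts, against the 25, 31, 20 and 31 of Hk1.

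Gpi1 encodes the isomerase that turns glucose 6-phosphate into fructose 6-phosphate, and a noncoding gene lies on its other strand. Gm26762, a long noncoding RNA gene on the plus strand inside the span of Gpi1 (chromosome 7, 34224755 to 34230236, mm10), had 12852, 12151, 13419 and 9004 counts, or 1616 TPM ± 87.4 (SD, n = 4), which put it at rank 111 of all genes by mean TPM. Gpi1 had 75, 68, 46 and 60 counts, or 7.05 TPM ± 1.51. Replicate 3 was highest for Gm26762 and lowest for Gpi1 by TPM. Both genes share 741 exon bases in 4 stretches, 14.0% of the exon length of Gm26762. Per kb of exon, the log2 ratio of Gm26762 over Gpi1 was 7.85 ± 0.42 (exact sign-flip p = 0.13, positive in 4 of 4 libraries).

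Phosphofructokinase commits sugar to glycolysis, and its 3 subunit genes were assigned very different levels. Pfkp, the platelet form (chromosome 13, 6579768 to 6648777, minus strand, mm10), had 1162, 1137, 1121 and 745 counts, or 79.6 TPM ± 6.41 (SD, n = 4), the highest level of the 31 pathway genes. Pfkl, the liver form, had 35, 32, 27 and 28 counts, or 3.33 TPM ± 0.413. Pfkm, the muscle form, had 146, 156, 132 and 93 counts, or 32.0 TPM ± 3.93. None of the ranges overlapped. Log2 ratios were 4.22 ± 0.23 for Pfkp over Pfkl, 1.29 ± 0.09 for Pfkp over Pfkm and -2.93 ± 0.23 for Pfkl over Pfkm, the same sign in 4 of 4 libraries in each case (exact sign-flip p = 0.13, 0.17 adjusted).

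Pfkp and Pfkm have an overlap with a gene on the other strand, and Pfkl has none. Pitrm1, which encodes a mitochondrial peptidase, shares 372 bases at its 3′ end with Pfkp, and had 18, 23, 21 and 21 counts, against 745 to 1162 for Pfkp. Senp1, a SUMO protease gene, shares 18 bases with Pfkm and had 30, 27, 20 and 17 counts, against 93 to 156 for Pfkm. In both pairs the glycolytic gene was the denser one, with log2 ratios per kb of -4.15 ± 0.36 for Pitrm1 over Pfkp and -4.45 ± 0.18 for Senp1 over Pfkm (SD, n = 4, exact sign-flip p = 0.13 each). The nearest opposite gene to Pfkl, 1810043G02Rik, lies 41 bases away and had 101, 137, 116 and 70 counts. The part of the strand arrangement in the order of the 3 subunits was not tested. Pfkfb3, whose product makes the allosteric activator of phosphofructokinase, had 3, 7, 5 and 9 counts, or 0.605 TPM ± 0.341.

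Aldolase splits fructose bisphosphate into trioses. Fam57b, a gene of the TLC domain family on chromosome 7 (126797668 to 126830219, plus strand, mm10), begins inside the Aldoa coding exon printed above. It had 13679, 12799, 15181 and 10149 counts, or 2375 TPM ± 165 (SD, n = 4), rank 69 of all genes. Aldoc, the brain form of aldolase, had 1 count in replicate 3 and 0 in the others, and Aldoa, the muscle and general form, had 215, 145, 123 and 136 counts, or 29.8 TPM ± 6.66. Aldoc thus had 0.00186 of the Aldoa count per kb (exact 95% interval 4.71e-05 to 0.0104, counting error only). Fam57b over Aldoa had a log2 ratio of 6.33 ± 0.41 per kb of exon, positive in 4 of 4 libraries (exact sign-flip p = 0.13). Replicate 3 was the highest library for Fam57b and the lowest for Aldoa by TPM.

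Gm26762 and Fam57b together held 1.18% ± 0.0922 of all counts (SD, n = 4), which is 8.80 ± 1.61 times the summed counts of all 31 pathway genes. At the next step, triose phosphate isomerase, the rows of both strands carried counts of the same order. Spsb2, a gene of the SOCS box family that overlaps the 3′ end of Tpi1 by 34 bases, had 233, 220, 248 and 182 counts. Tpi1 had 217, 133, 119 and 150 counts, or 41.0 TPM ± 10.97. Spsb2 over Tpi1 stood at a log2 ratio of 1.27 ± 0.43 per kb (exact sign-flip p = 0.13).

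Lower glycolysis, which yields ATP, was assigned its counts mainly through Pkm, Gapdh and Eno1. Gapdh, glyceraldehyde phosphate dehydrogenase, had 249, 217, 157 and 193 counts, or 36.0 TPM ± 7.04 (SD, n = 4). Pgk1, phosphoglycerate kinase, had 44, 32, 29 and 34 counts, or 11.3 TPM ± 2.26. Pgam1, phosphoglycerate mutase, had 11, 8, 3 and 9 counts, or 3.13 TPM ± 1.45. Replicate 3 was lowest for all 3 genes.

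Eno2, the neuronal enolase, had 1, 3, 0 and 0 counts. Eno1, the general form, had 133, 91, 63 and 92 counts, or 12.9 TPM ± 3.76 (SD, n = 4). Per kb, the Eno2 count was 0.0121 of that of Eno1 (exact 95% interval 0.00327 to 0.0312). Pkm, pyruvate kinase, had 334, 242, 199 and 211 counts, or 35.7 TPM ± 7.11. Replicate 3 was again lowest for Eno1 and Pkm by TPM, and replicate 1 highest. Eno2, Tpi1 and Gapdh lie on 1 stretch of chromosome 6 and on the same strand, with 40912 bases between Eno2 and Tpi1 and 347418 between Tpi1 and Gapdh.

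Gapdh and Pkm share letters with other rows. The tables hold 121 pseudogene rows with at least 200 bases at 95% identity to Gapdh transcripts, of which 96 had 0 counts in all libraries. The 121 rows summed to 79, 68, 76 and 43 counts in replicates 1 to 4. The highest of them, Gm5069, with 45, 51, 59 and 27, lies itself opposite an exon of Itpkb. Near-identical pseudogene rows existed for 11 of 31 pathway genes, and outside Gapdh only the Pkm copy Gm6560 had counts (2, 1, 2 and 1). How the counting split reads between a gene and its copies is not given in the sources used here, so the Gapdh level is uncertain to that extent. Pkm also shares 767 bases on its own strand with Gm49759, which had 4, 0, 5 and 1 counts. Iffo1, an intermediate filament family gene, overlaps the 3′ end of Gapdh by 68 bases and had 23, 24, 5 and 17 counts, against 157 to 249 for Gapdh, a log2 ratio over Gapdh of -4.13 ± 0.72 per kb (exact sign-flip p = 0.13).

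Lactate dehydrogenase turns pyruvate into lactate and restores NAD+. Ldhb, the heart-type subunit, had 3, 3, 3 and 0 counts in replicates 1 to 4. Ldha, the main subunit in glycolytic cells (chromosome 7, 46841475 to 46855627, plus strand, mm10), had 322, 269, 167 and 270 counts, or 57.1 TPM ± 16.4 (SD, n = 4), the highest level among pathway genes with no overlap. Per kb, the Ldhb count was 0.0185 of that of Ldha (exact 95% interval 0.00842 to 0.0352). Ldhb over Ldha had a log2 ratio of -4.91 ± 0.94, below 0 in 4 of 4 libraries (exact sign-flip p = 0.13, 0.17 adjusted). Neither gene has an overlap on the other strand.

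Lactate leaves the cell through Slc16a3 and Slc16a1, monocarboxylate transporters that differ in affinity. Slc16a3 had 53, 63, 53 and 40 counts, or 7.09 TPM ± 0.835 (SD, n = 4). Slc16a1 had 64, 47, 42 and 28 counts, or 7.27 TPM ± 1.70. Their ranges overlapped. Slc16a3 over Slc16a1 had a log2 ratio of -0.02 ± 0.31, with 3 of 4 libraries positive and replicate 1 at -0.48 (exact sign-flip p = 1.0). Without replicate 1 it was 0.14.

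Pyruvate is oxidised in mitochondria by the pyruvate dehydrogenase complex, which Pdk1 inhibits by phosphorylation. Pdk1 had 14, 8, 10 and 3 counts, or 0.782 TPM ± 0.352, and Pdha1, a gene of the catalytic E1 subunit, had 65, 75, 57 and 47, or 11.8 TPM ± 1.63 (SD, n = 4). Pdk1 over Pdha1 had a log2 ratio of -2.86 ± 0.35, below 0 in 4 of 4 libraries (exact sign-flip p = 0.13, 0.17 adjusted). Map3k15, a kinase gene that shares 603 bases in 3 stretches with Pdha1, had 4051, 3659, 4145 and 2663 counts, against 47 to 75 for Pdha1. Per kb, Map3k15 over Pdha1 stood at a log2 ratio of 5.65 ± 0.24 (exact sign-flip p = 0.13).

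The oxidative pentose phosphate arm starts with G6pdx, glucose 6-phosphate dehydrogenase, which makes NADPH. The gene lies inside the span of Ikbkg, which encodes the regulatory subunit of the IκB kinase complex, and shares 418 bases with it. Ikbkg had 717, 680, 733 and 540 counts. G6pdx had 25, 30, 42 and 19, or 6.74 TPM ± 1.82 (SD, n = 4), and was the one pathway gene with a mean of 20 counts or more that was highest in replicate 3. Ikbkg over G6pdx had a log2 ratio of 3.13 ± 0.32 per kb (exact sign-flip p = 0.13). Pgd, which makes the arm's other NADPH, had 27, 32, 18 and 17 counts, or 2.62 TPM ± 0.680. Pgls, the lactonase between them, had 5, 5, 4 and 4 counts, or 0.868 TPM ± 0.102. It shares 776 bases on its own strand with Fam129c, which had 0 counts in all libraries.

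In the non-oxidative arm Tkt, transketolase, was highest. It had 125, 96, 72 and 100 counts, or 11.02 TPM ± 2.72 (SD, n = 4), with replicate 3 lowest. Taldo1, transaldolase, had 15, 11, 9 and 16 counts, or 4.37 TPM ± 1.61. The isomerase gene Rpia, whose product makes ribose phosphate, had 10, 11, 4 and 3 counts, or 0.921 TPM ± 0.491. Kansl1l, which shares 558 bases at its 3′ end with the epimerase gene Rpe, had 306, 241, 283 and 200 counts. Rpe had 20, 11, 10 and 10 counts, or 2.94 TPM ± 0.911, and Kansl1l over Rpe stood at a log2 ratio of 3.17 ± 0.34 per kb (exact sign-flip p = 0.13). G6pdx over Tkt, the highest genes of both arms, had a log2 ratio of -0.63 ± 0.67, positive in replicate 3 only (0.27), with an exact sign-flip p of 0.25 (0.31 adjusted).

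**Figure D2:**
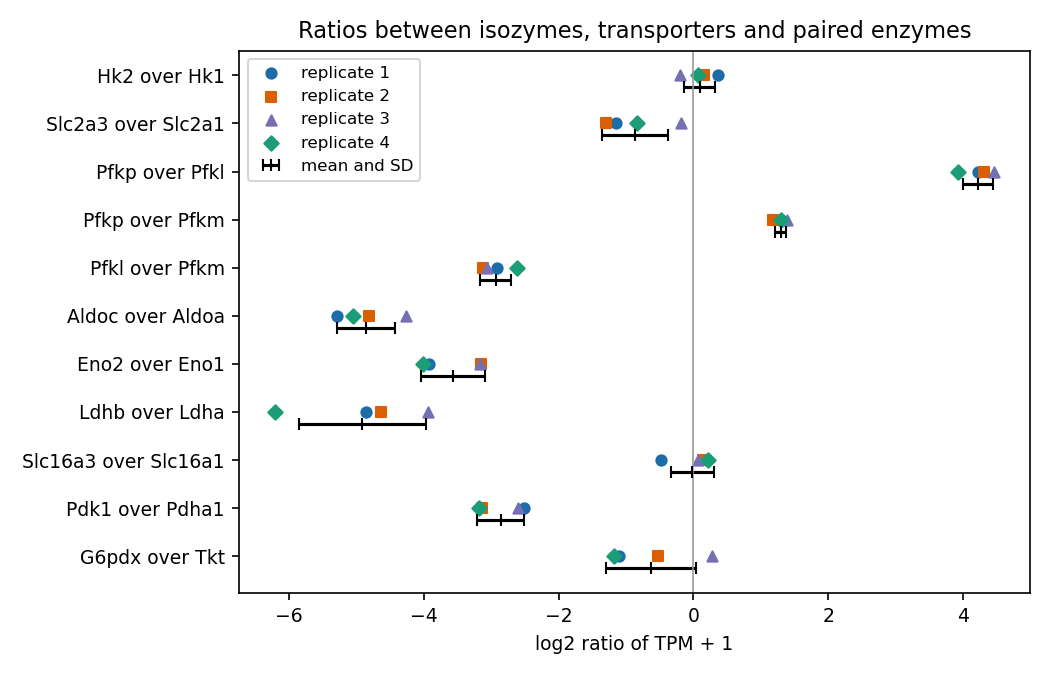
Log2 ratios of TPM + 1 for the 11 pairs compared, with 1 point per library and the mean and SD beneath. The points of Hk2 over Hk1, Slc16a3 over Slc16a1 and G6pdx over Tkt lie on both sides of 0, and those of the other 8 pairs on 1 side.

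Over the 11 pathway genes with an opposite row, the opposite row was denser in counts in all 4 libraries in 8 pairs and the pathway gene in 3, with 1 count added to each row. With 0.5 counts added it was 7 of 11, since Hk1os was denser than Hk1 in 3 of 4 libraries (exact sign-flip p = 0.25), and in counts not divided by length it was also 7. The share of 72.7% stood near the background. Of all pairs of a protein-coding gene and opposite row, with either above 3 counts in every library, 63.3% had the opposite row denser throughout. A pair of 2 protein-coding genes entered that background from each side, and at most 1 entry could have the opposite row denser. Pathway pairs entered the 72.7% from the side of the pathway gene only. Log2 ratios ran from 9.62 ± 0.90 for Gm12868 over Slc2a1 and 7.85 for Gm26762 over Gpi1 to -4.13, -4.15 and -4.45 for Iffo1, Pitrm1 and Senp1 (SD, n = 4). Hk1os over Hk1 was the smallest, 0.95 ± 0.71 per kb (exact sign-flip p = 0.13), and in plain counts, which do not correct for the length of Hk1, it was -1.51. Adjusted over the 11 pairs, the p stayed at 0.13 for all of them. By the spans of the genes, the 3′ ends overlap in 6 pairs and the 5′ ends in 2. In 2 pairs the opposite row lies inside the span of the pathway gene. In 1, G6pdx, the pathway gene lies inside the span of the opposite row. Shared exon bases can lie away from those ends. They lie 11416 genomic bases from the start of Aldoa and 4024 from the end of Slc2a1. The summed counts of the opposite rows were 33107, 30859, 35215 and 23664, against 2213, 2021, 1831 and 1494 for the 11 pathway genes, 16.3 ± 1.97 times as many (SD, n = 4).

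**Figure D3:**
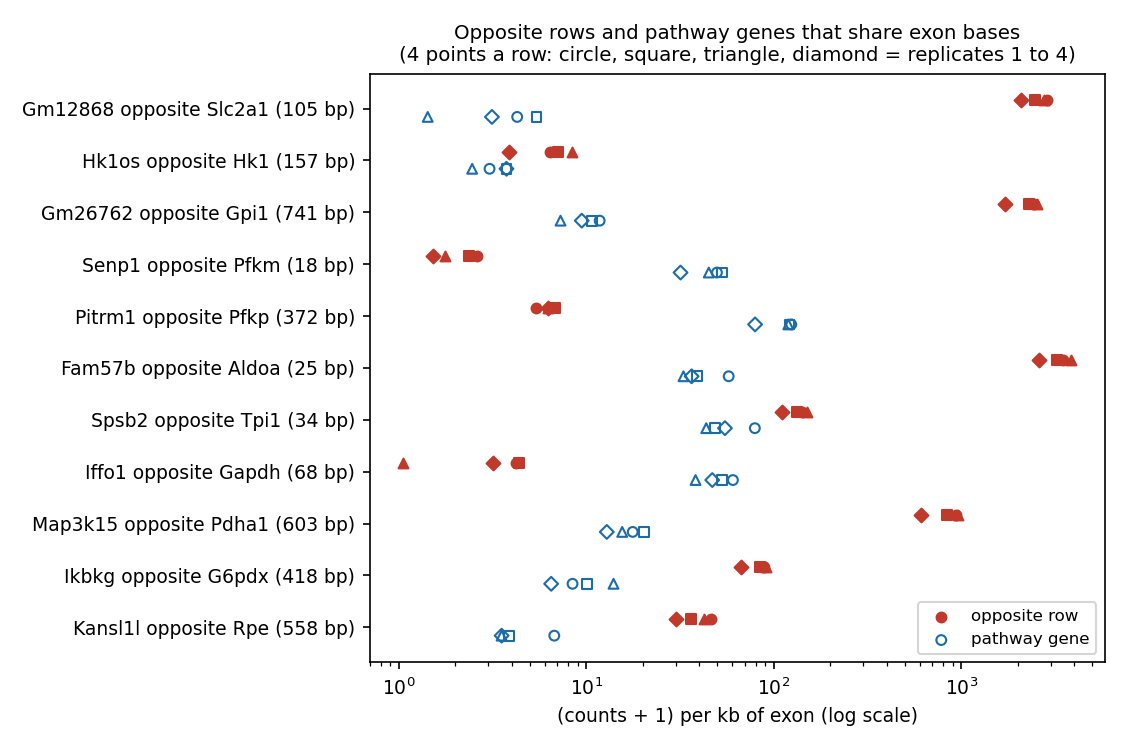
Counts plus 1 per kb of exon, on a log axis, for each opposite row (filled) above its pathway gene (open), with 1 point per library and the shared exon bases in parentheses. In 8 pairs all filled points lie right of the open ones, and for Senp1, Pitrm1 and Iffo1 they lie left.

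No member passed the test of variation between replicates. With 1 group, edgeR was asked whether a gene varied around a single mean more than genes of like abundance did. The spread of those genes was estimated from these same 4 libraries, so variation that many genes share is part of the baseline. The fit covered all genes at once, with Benjamini-Hochberg adjustment at 0.05. Over all genes 23 of 5064 tested passed (0.454%), and of the members 0 of 21 tested, with 3 at an unadjusted p under 0.05. Ldha had 64.3, 57.2, 34.3 and 72.4 TPM in replicates 1 to 4, lowest in replicate 3, and came closest, at an edgeR adjusted p of 0.0617. The other two of these 3 were Tpi1 and Eno1, at edgeR adjusted p-values of 0.71 and 0.821. DESeq2 marked 32 of 17327 genes (0.185%) as dispersion outliers, 0 of them members. The Ldha call changed with the genes that were kept: its edgeR adjusted p was 0.0334 without the 2 rows CT010467.1 and Gm42418, which held 3.25% to 15.9% of counts per library, and 0.996 when only rows without an overlap were fitted. Without replicate 3 the edgeR adjusted p was 1, and with each other library left out in turn it was 0.0601 to 0.285.

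The order of the libraries was shared by many pathway genes. Of the 10 pathway genes without an overlap and with a mean of 20 counts or more, 8 were lowest in replicate 3 by TPM. Among all rows of that kind, inside and outside the pathway, 61.6% were. Summed over the 20 pathway genes without an overlap, the level was 190, 162, 113 and 189 TPM in replicates 1 to 4, the highest 1.67 times the lowest. Replicate 3 is also the library where rows without an overlap held the smallest share of counts, 5.48%. As a share of the counts in those rows, the 20 genes held 0.720%, 0.684%, 0.601% and 0.751%, and the highest was 1.25 times the lowest. Scaled that way, 5 of the 10 genes were lowest in replicate 3, against 34.2% of all such rows, and Ldha was still lowest there, at 418 CPM per kb, with the counts in rows without an overlap as the total, against 559 to 685 in the other libraries.

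Of the 9 pathway genes with an overlap and a mean of 20 counts or more, 6 were lowest in replicate 3, namely Hk1, Gpi1, Aldoa, Tpi1, Gapdh and Pdha1, where 21.5% of all rows with an overlap were. Pfkm and Pfkp were lowest in replicate 4, as were 46.6% of those rows. The share of counts in rows without an overlap moved with this order, and its part in it was not tested. Scaled to the counts in rows without an overlap, 2 of the 9 were lowest in replicate 3, against 5.97% of all such rows. Gm26762 and Fam57b were highest in replicate 3 by TPM, by share of counts, by TMM-normalized CPM and by that scaling too. The shares of 21.5%, 46.6% and 5.97% cover the denser and the sparser rows of overlapping pairs together. By counts plus 1 per kb, Hk1, Gpi1, Aldoa, Tpi1 and Pdha1 were the sparser row of their pair, and Gapdh the denser one. The share over sparser rows alone was not computed.

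**Figure D4:**
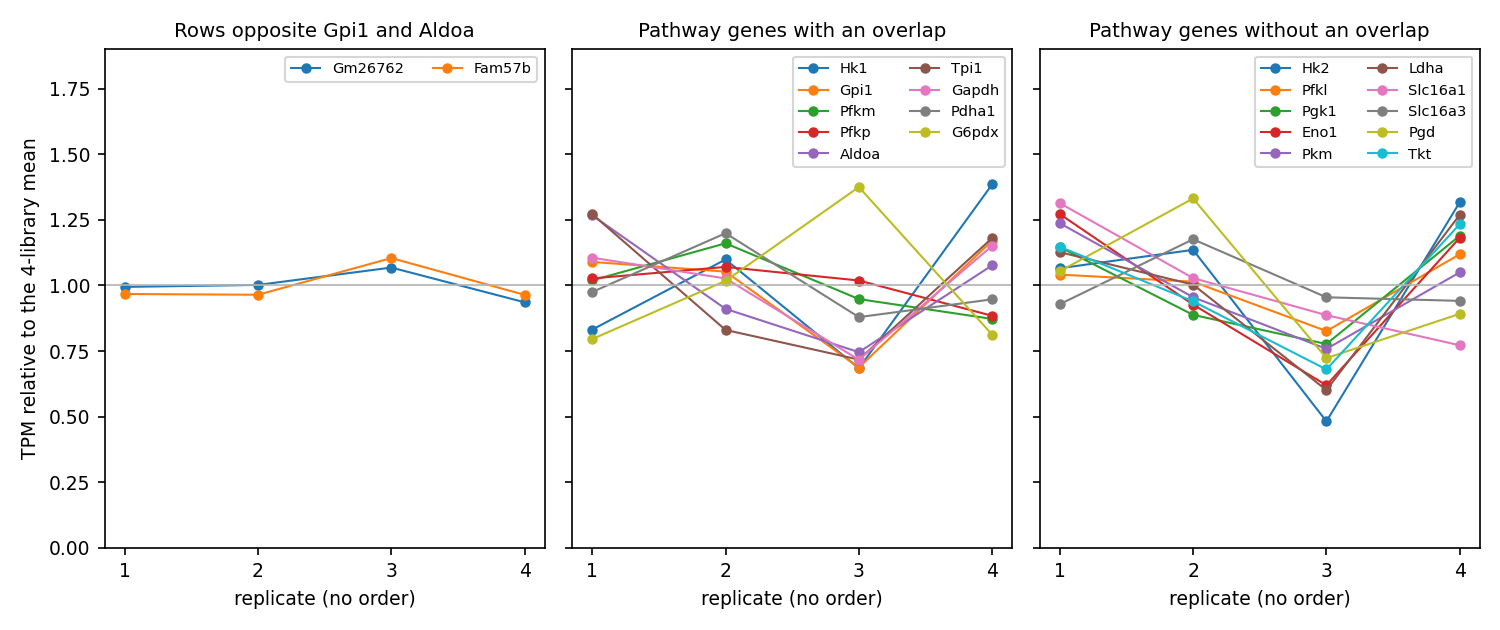
TPM divided by the 4-library mean of the same gene, for Gm26762 and Fam57b (left), the 9 pathway genes with an overlap (middle) and the 10 without one (right), all with a mean of 20 counts or more. The replicates have no order, and lines only join the values of 1 gene. Gm26762 and Fam57b are highest in replicate 3, where 6 of the 9 and 8 of the 10 pathway genes are lowest.

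Promoters of the pathway genes were searched for ACGTG, the core letters of the site bound by hypoxia-inducible factor, and for CACGTG, an E-box that contains it, on both strands. RefSeq promoters (GRCm38.p6, 250 bases before to 50 after the start) were found for 30 of 31 genes. ACGTG was present in at least 1 promoter of 15 of 30, against 21.8% of 27025 genes, and CACGTG in 4 of 30, against 8.09%. Per promoter sequence, ACGTG was present in 18 of 44 (40.9%), against 19.6% of 32851, and CACGTG in 4 of 44 (9.09%), against 7.15%. These backgrounds hold all genes with a RefSeq promoter and were not matched to the pathway genes for base composition or level. The promoters of Ldha, chr7:46845554-46845853, plus strand, Pgk1, chrX:106186850-106187149, plus strand, and Tkt, chr14:30548881-30549180, plus strand, are shown. All 3 genes lack an overlap and were lowest in replicate 3, and they were picked with the matches known: Ldha has the most, Pgk1 has 2, and Tkt has 0. Of the other genes of that kind with a mean of 20 counts or more, Hk2 and Pkm have matches. Eno1, Pfkl and Pgd have 0. Capitals mark ACGTG or CACGT, and the Ldha window holds CACGTG at 2 places, while the other Ldha promoter in that table holds neither string. These matches describe letters only and say nothing of a factor being bound.
Ldha: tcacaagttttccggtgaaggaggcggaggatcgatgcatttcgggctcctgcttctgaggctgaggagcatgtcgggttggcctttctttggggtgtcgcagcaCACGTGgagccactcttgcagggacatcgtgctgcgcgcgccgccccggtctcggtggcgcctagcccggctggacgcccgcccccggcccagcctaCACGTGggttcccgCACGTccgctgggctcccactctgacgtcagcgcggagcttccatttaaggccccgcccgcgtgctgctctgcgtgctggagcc
Pgk1: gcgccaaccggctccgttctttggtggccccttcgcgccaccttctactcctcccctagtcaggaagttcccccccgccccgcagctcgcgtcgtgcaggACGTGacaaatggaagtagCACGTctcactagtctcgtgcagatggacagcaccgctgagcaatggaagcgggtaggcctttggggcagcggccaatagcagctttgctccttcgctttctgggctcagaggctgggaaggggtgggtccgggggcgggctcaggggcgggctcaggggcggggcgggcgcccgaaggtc
Tkt: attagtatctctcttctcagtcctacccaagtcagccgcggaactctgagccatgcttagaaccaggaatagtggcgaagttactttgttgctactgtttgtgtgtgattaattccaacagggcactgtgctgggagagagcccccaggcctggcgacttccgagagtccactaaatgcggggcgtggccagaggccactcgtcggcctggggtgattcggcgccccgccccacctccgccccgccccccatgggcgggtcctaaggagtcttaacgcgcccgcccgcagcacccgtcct

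Other genes of the pathway were taken from 5 lists of 92 symbols, of which 91 were in the tables. At least 1 TPM in every library was reached by 27 of the 91, and 16 of these 27 have no overlap on the other strand. The background for this count and for each list below is 13.3% of all genes and 21.8% of protein-coding genes. Of the 19 that could be tested, 0 passed the edgeR test of replicate variation, against 0.454% of all genes tested. Other transporters and isozymes reached 1 TPM in every library in 8 of 29. Pgam2, the muscle phosphoglycerate mutase, had 74, 76, 82 and 48 counts, or 59.7 TPM ± 6.91 (SD, n = 4), above Pgam1, the form found in most tissues, at 3.13 TPM. Pgam2 has no exon overlap, and Dbnl lies 677 bases away on the other strand with 37, 22, 27 and 27 counts. Gapdhs, the sperm form of Gapdh, followed at 38.9 TPM ± 5.80 opposite Tmem147os, and Slc2a12 at 36.6 ± 4.35 opposite Tbpl1.

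The genes of pyruvate entry reached 1 TPM in every library in 2 of 13. The 3 highest by mean were Pdhb (4.31 TPM ± 2.03), Dld (3.67 ± 1.96) and Dlat (2.01 ± 1.12) (SD, n = 4). All 3 encode subunits of the pyruvate dehydrogenase complex. Of 8 other pentose phosphate genes, 2 reached 1 TPM in every library. The highest by mean were the ribokinase gene Rbks (2.98 TPM ± 1.30) and the phosphoribosyl pyrophosphate synthetase genes Prps1 (2.40 ± 1.199) and Prps2 (2.07 ± 0.686). In the branches of glycolysis 7 of 24 reached 1 TPM in every library. The 3 highest were the serine synthesis genes Psph (453 TPM ± 18.5), Psat1 (8.34 ± 2.78) and Phgdh (7.78 ± 1.399), and Psph shares 452 bases with Cct6a, a chaperonin subunit gene with 156, 124, 97 and 119 counts, whereas Psat1 and Phgdh have no overlap. Psph had 2806, 2885, 2963 and 2200 counts.

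Among regulators of glycolysis genes 8 of 17 reached 1 TPM in every library. The highest were Mlx, a partner of glucose-sensing transcription factors, at 22.2 TPM ± 1.46 with an overlap with Psmc3ip, the growth regulator Myc at 10.8 ± 2.45 and the kinase gene Akt1 at 6.02 ± 2.22 (SD, n = 4). Gm15283 had 2556, 2677, 2948 and 1970 counts, against 48, 31, 29 and 27 for Hif1a, the oxygen-regulated subunit of hypoxia-inducible factor, with which it shares 330 bases.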

How the data were processed

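The deposited tables give whole counts of read pairs per gene and, as another value of each row, the exon length in bp; the authors did not normalize the counts. Per the file headers, the counter was featureCounts 1.4.6-p4 (strand setting 1, both ends mapped, exons summed within a gene) on GENCODE vM13 and mm10. No source used here says whether that strand setting matches the library kit. The output's name points to STAR as aligner, whose version is not given in the sources used here. By its label the assay is total RNA, but the library protocol that the labels link to is for polyadenylated RNA.

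TPM was computed from counts and length over all 50600 genes, of which 224 had no name match. The members are a list of symbols with no threshold on a value, but they, the other gene lists, the ratios and the tests were chosen with earlier results of these data known. The text names all 33 members, every row that shares exon bases with one on the other strand, and the 3 highest genes of each other list. Hif1a, the pseudogenes and the nearest neighbours were added after values were seen. Ratios used TPM + 1 (opposite pairs, counts + 1 per kb of exon) and the exact two-sided sign-flip test over 4 libraries, whose smallest p is 0.13 (rounded), with Benjamini-Hochberg adjustment over 11 ratios and over 11 pairs.

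Replicate variation was the goodness of fit of a negative binomial model with only an intercept in edgeR 4.0.16 (R 4.3.3, TMM factors, trended dispersion, filterByExpr). The test was also run on counts simulated with 1 dispersion for all genes, and its outcome there is not given here. Size factors and dispersion outliers came from DESeq2 1.42.0. GENCODE vM21 gave names, transcript letters and coding parts on the same assembly. BLAST 2.17.0 found copies with at least 200 bases at 95% identity. Other tools were Python 3.11.15, pandas 2.3.3, SciPy 1.17.1 and Matplotlib 3.10.9. Depth was 1785970 to 2271993 counts per library. Read pairs carry no molecular identifiers and may repeat a molecule, so 95% intervals and floors cover counting error alone. Alternatives were other pseudocounts, scalings, filters and dispersions, and leaving out each library. Added after the counts were seen were fits or sums over rows with or without an overlap alone. One marker value is not reported here.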

Additional observations from a re-analysis of the deposited data

Results flagged for a closer look

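In 4 of 63 groups of 4 library values examined, 1 library stood far from the others: its gap to the nearest other library, as a share of the whole range, passed Dixon's 95% limit. Chance flags about 1 in 20 such groups. Fam57b was higher in replicate 3, at 2622 TPM against 2289 to 2297 in the others, a gap of 0.977 of the range. Slc16a3 was higher in replicate 2, at 8.34 TPM against 6.59 to 6.77, a gap of 0.893. Aldoc had its single count in replicate 3, a gap of 1.0, and Ldhb had 0 counts in replicate 4 and 3 in each other library, a gap of 0.938. The last pair rests on counts at or under 3, the limit that a count of 0 allows.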

How the results depend on the processing

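Of 339 alternative values, 297 kept their direction, side of the threshold or size, and of 162 alternatives for the 22 ratios and pairs 158 kept the sign. The exceptions were Hk2 over Hk1 (-0.38 with raw counts), Slc16a3 over Slc16a1 (0.24 with raw counts and -0.092 to 0.14 with each library left out) and Hk1os over Hk1 (-1.51 with counts in place of counts per kb). For the 8 pairs with at least 50 shared bases, that setting repeated the main value and could not change the sign. Raising the lower gene to at least 3 counts changed only Aldoc over Aldoa, Eno2 over Eno1 and Ldhb over Ldha. Entries left at the main value by these settings are included in the totals that kept their sign. Without CT010467.1 and Gm42418, 1 member, Ldha, passed the edgeR test of replicate variation. The count of all genes that passed it, 23, was 15 with no filter on low counts, 3 with only rows without an overlap and 7 to 20 with each library left out, with 12 without replicate 3 and 7 without replicate 4. All pathway genes together held 0.0415% of TPM and 0.136% of counts. Their highest library was 1.41 times the lowest in TPM, 1.26 with TMM-normalized values, 1.31 as a share of counts and 1.11 to 1.41 with each library left out, lowest without replicate 3. At 5 TPM in every library 14 pathway genes passed in place of 22. The cause of these differences was not tested. Shared stretches of at least 50 bases did not exist for Pfkm, Aldoa and Tpi1. Genes with under about 10 counts per library carry wide counting error. No paired analysis was possible because all libraries belong to 1 group.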
